A study of Mus musculus with 12 samples.

Results

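Expression of 10 cardiac and muscle contractile genes was measured in mouse embryonic stem cells (ESCs) in which the Polycomb protein Ring1B can be deleted. The genes were Myh6, Myh7, Actc1, Acta1, Tnnt2, Tnni3, Tnnc1, Myl4, Myl7 and Nppa, of 18193 genes that have a probe set of their own on the array. They were selected on a known result of these same arrays, the rise of Myh6 after OHT in the lines with mutant Ring1B, together with the other sarcomere and cardiac genes of the set. The array holds 16 probe sets for them, 2 of which are annotated to both Myh7 and Myh6. Of the 16, 13 passed a filter on dim signals (a log2 signal over 3.94 on at least 1 array), and these 13 covered all 10 genes. The other 3, a second Myh6 probe set (1417729_at, 2.43 to 2.72 over the arrays), a Tnnt2 probe set (1418726_a_at, 2.70 to 3.62) and a shared Myh7 and Myh6 probe set (1448827_s_at, 2.71 to 3.48), stayed below it on every array and were not tested.

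All cells were Ring1A-/-;Ring1B fl/fl;Rosa26::CreERT2 ESCs of a 129/B6 hybrid background. 4-hydroxytamoxifen (OHT) activates the Cre recombinase in them, which deletes the endogenous Ring1B gene, so both arms lack Ring1A and the OHT+ arm loses endogenous Ring1B as well. The 6 lines were 1 mock transfectant with an empty vector (mock cells), 3 lines with a Ring1B that carries a point mutation at the E2-binding surface (I53S #1, I53S #4 and I53A #1, called the mutant lines here) and 2 lines with wild-type Ring1B (WT #1 and WT #3). The constructs carried a 3xFlag tag and were stably expressed from the pCAG-IRES-Puro vector, and each line is 1 stable transfectant. Each line was hybridised to 1 array 2 days after the start of OHT (800 nM for 24 h) and to 1 array without OHT, which gives 12 arrays. The cells were grown on irradiated mouse embryonic fibroblast feeders or on gelatin, and the labels do not say which array came from which.

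Polycomb repressive complex 1 ubiquitinates histone H2A through Ring1A or Ring1B and keeps many developmental genes silent in ESCs. Contractile genes belong to a later program. Myh6 and Myh7 encode the alpha and beta myosin heavy chains of heart muscle, the motors of the thick filament, and lie next to each other on chromosome 14. Myl7 and Myl4 encode atrial myosin light chains, Actc1 and Acta1 the cardiac and skeletal actins of the thin filament, and Tnnt2, Tnni3 and Tnnc1 the troponin subunits through which calcium controls contraction. Nppa encodes atrial natriuretic peptide, a hormone of the atrium. Myl7 and Nppa are among the genes expressed in the early heart tube.

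The ESC label was borne out by the arrays. All 15 ESC markers were above the filter threshold on all 12 arrays, and Pou5f1 read a log2 signal between 12.34 and 12.87. Most fibroblast markers were above the filter threshold too, and which cells their RNA came from was not tested. Of 18 fibroblast markers, 15 were above the threshold on every array, Dpt was above it on 1 array, and Lum and Fap stayed below it on every array. Smooth muscle actin (Acta2, 9.83 to 12.37) and transgelin (Tagln, 9.49 to 12) were bright on all arrays. Arrays correlated with each other at 0.973 to 0.990 without any duplicate. Rnf2, the gene of Ring1B, kept its brightest probe set between 10.57 and 11.29. The sources do not place its probe sets relative to the deleted exons, and the deletion is therefore not checked by it. In bulk RNA of this kind, fewer cells of a type and less RNA per cell cannot be told apart.

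The sequences before the start sites are given first, for the 3 genes called in mutant lines (Myh6, Myh7 and Myl7) and for Actc1 and Myl4, which were not called, so that the elements in them can be set side by side. RefSeq promoters (GRCm38.p6, 250 bases before to 50 bases after the annotated start) were found for all 10 genes, 12 windows in all because Myh7 and Tnnt2 have 2 starts each. All are written 5′ to 3′ on the strand of the gene, which is the minus strand for Myh6, Myh7, Myl7 and Actc1 and the plus strand for Myl4. In the first 4, capitals mark matches on either strand to TATAAA (the core of a TATA box), CATTCC (the MCAT element of muscle promoters), GATAAG (bound by GATA factors) and the CArG box (bound by serum response factor). In the Myl4 window, capitals mark CG dinucleotides.
Myh6 promoter, chr14:54966558-54966857: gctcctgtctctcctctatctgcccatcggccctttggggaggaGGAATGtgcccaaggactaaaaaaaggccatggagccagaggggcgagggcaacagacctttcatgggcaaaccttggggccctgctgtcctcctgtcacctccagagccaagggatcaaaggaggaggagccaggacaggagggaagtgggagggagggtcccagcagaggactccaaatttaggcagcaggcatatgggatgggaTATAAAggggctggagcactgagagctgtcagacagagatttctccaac
Myh7 promoter, chr14:54994577-54994876: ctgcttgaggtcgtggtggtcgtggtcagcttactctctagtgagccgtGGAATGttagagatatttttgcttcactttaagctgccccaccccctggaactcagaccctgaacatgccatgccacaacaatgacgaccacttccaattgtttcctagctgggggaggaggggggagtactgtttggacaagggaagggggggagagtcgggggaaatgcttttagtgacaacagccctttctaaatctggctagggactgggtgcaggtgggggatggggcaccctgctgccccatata
Myl7 promoter, chr11:5898733-5899032: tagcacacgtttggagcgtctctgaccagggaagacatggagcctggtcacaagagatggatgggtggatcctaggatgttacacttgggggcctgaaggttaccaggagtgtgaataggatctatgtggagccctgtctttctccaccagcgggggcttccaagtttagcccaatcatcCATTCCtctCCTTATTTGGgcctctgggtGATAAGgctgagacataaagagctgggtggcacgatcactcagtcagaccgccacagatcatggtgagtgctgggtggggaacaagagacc
Actc1 promoter, chr2:114052826-114053125: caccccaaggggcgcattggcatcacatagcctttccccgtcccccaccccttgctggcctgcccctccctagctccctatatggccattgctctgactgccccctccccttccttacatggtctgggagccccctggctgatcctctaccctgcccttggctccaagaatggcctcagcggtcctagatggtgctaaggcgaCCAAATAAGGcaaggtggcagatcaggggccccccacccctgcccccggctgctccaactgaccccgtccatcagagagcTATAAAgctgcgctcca
Myl4 promoter, chr11:104550413-104550712: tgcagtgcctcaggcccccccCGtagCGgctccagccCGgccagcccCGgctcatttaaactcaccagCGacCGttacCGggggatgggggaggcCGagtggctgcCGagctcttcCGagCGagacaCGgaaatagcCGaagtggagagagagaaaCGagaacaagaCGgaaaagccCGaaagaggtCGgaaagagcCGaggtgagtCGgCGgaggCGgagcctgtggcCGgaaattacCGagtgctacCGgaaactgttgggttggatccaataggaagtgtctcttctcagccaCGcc

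The Myl7 window held 3 of these elements side by side, with CATTCC starting 70 bases, the CArG box 61 bases and GATAAG 41 bases before the start. The Myh6 window held a TATAAA at the annotated start and a CATTCC match on the other strand, and the Myh7 window shown held the CATTCC match alone. CArG boxes were found in 3 of the 12 windows (Actc1, Acta1 and Myl7), against 1.63% of all 32851 promoters of that length. CATTCC was found in 6 windows (Myh6, Myh7, Acta1, Tnnt2, Tnnc1 and Myl7), against 14.7% of all promoters, and thus both in genes that were called in mutant lines and in genes that were not. TATAAA was found in 4 (Myh6, Actc1, Acta1 and Nppa), against 13.6%, and GATAAG in 2 (Tnni3 and Myl7), against 7.44%. The MEF2 site was found in none of the 12 windows and in 3.19% of all. No 2 of these motifs overlapped in the windows shown. The windows also differed in CpG content, and Polycomb complexes in mammals are found mostly at CpG islands. The Myh6 window held 2 CpGs and the Myl7 window 5, against a median of 7 over all promoters, while the Myl4 window held 25, more than 81.6% of all promoters. The 12 windows had a median of 5 CpGs. A match is a description of letters, and nothing follows from it about binding in these cells.

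Myh6 had the largest mean change of the 10 genes in mutant lines. Its probe set 1448826_at read a log2 signal of 7.29 on day 2 of OHT and 6.02 without OHT in mock cells. The mutant lines read 7.41, 7.33 and 7.29 after OHT (I53S #1, I53S #4 and I53A #1), against 5.09, 5.03 and 5.18 before it. The WT lines read 6.10 (WT #1) and 6.34 (WT #3) after OHT, against 5.10 and 5.58 before it. The OHT+ mock and mutant arrays thus lay together near a log2 signal of 7.3, the OHT+ WT arrays about 1 lower, and every OHT- array lower than its own OHT+ array. Among the OHT- arrays that of the mock line stood above the other 5.

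The change in Myh6, OHT+ minus OHT- on the log2 scale, was 1.27 in mock cells, 2.33, 2.30 and 2.11 in mutant lines and 1.00 and 0.76 in WT lines. The 3 mutant lines averaged 2.25 ± 0.12 (SD, n = 3), a 4.75-fold higher signal. No mutant value overlapped those of the mock or WT lines, and the share of all probe sets that split this way was not counted. Among all 37446 probe sets tested, the Myh6 change ranked 21 in I53S #1, 21 in I53S #4 and 43 in I53A #1, counted from the largest rise, and it ranked 711 in mock cells, 563 in WT #1 and 1032 in WT #3. These mutant values are those that led to the choice of the genes and are given without a test.

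Myh6 also read higher after OHT in lines that the choice did not use, but the changes there did not pass the test over all probe sets. In mock cells the change of 1.27 (SE 0.19, 95% interval 0.80 to 1.75, a 2.42-fold higher signal) had an adjusted p of 0.0877 by limma with Benjamini-Hochberg adjustment. Since there is a single mock line, its spread was taken from that of the other 5. That spread, here and in the tests of mock and WT lines below, includes the mutant lines that led to the choice. These tests are therefore not independent of the choice. In WT lines, the mean change of 0.88 (SE 0.14, interval 0.54 to 1.22, higher in 2 of 2 lines) had an adjusted p of 0.597 by limma, with an unadjusted p of 0.00083. The difference between the mock and WT changes was 0.39 (interval -0.19 to 0.98, adjusted p = 0.548 by limma). Over the alternatives tried, the adjusted p in mock cells ran from 0.00954 to 0.17, and it was under 0.05 with probe sets averaged per gene (0.0406) and where trended and robust priors were used (0.00954).

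Myh7, the beta chain, read higher after OHT in the mock and mutant lines and not in WT lines. Its own probe set 1448553_at read 6.33 after OHT against 5.21 before it in mock cells. The mutant lines read 6.04, 5.97 and 6.10 after OHT, against 5.53, 4.96 and 5.09 before it. The WT lines read 5.01 and 5.53 after OHT, against 5.10 and 5.65 before it. The 4 OHT+ arrays of the mock and mutant lines were above all 8 other arrays. The share of all probe sets that separate this way was not counted, and the choice used the mutant arrays. Nothing is read from the separation. The log2 changes were 1.12 in mock cells, 0.51, 1.01 and 1.01 in mutant lines (mean 0.84 ± 0.29, SD, n = 3) and -0.09 and -0.12 in WT lines. By limma the mock change (SE 0.24) had an adjusted p of 0.125, the WT mean of -0.10 an adjusted p of 0.948, and the difference of 1.23 between them (interval 0.50 to 1.95) an adjusted p of 0.261.

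A further probe set, 1448554_s_at, is annotated to both Myh7 and Myh6 and cannot tell them apart. It read 7.27 after OHT against 5.93 before it in mock cells. The mutant lines read 6.65, 6.56 and 6.85 after OHT, against 5.59, 5.24 and 5.30 before it, and the WT lines read 6.36 and 6.18 after OHT, against 5.40 and 5.81 before it. It was higher after OHT in all 6 lines. Its log2 changes were 1.34 (mock line), 1.07, 1.32 and 1.55 (mutant lines, mean 1.31 ± 0.24, SD, n = 3) and 0.95 and 0.37 (WT lines). The mock change had an adjusted p of 0.121 and the WT mean of 0.66 an adjusted p of 0.618 by limma, and the difference of 0.68 between them an adjusted p of 0.482. Because Myh6 and Myh7 are close paralogues, signal of one in the probe set of the other was not tested.

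Myl7, the atrial regulatory light chain, was higher after OHT in the mock line and each mutant line. Its probe set 1449071_at read 8.46 after OHT against 7.44 before it in mock cells. The mutant lines read 8.89, 8.66 and 8.87 after OHT, against 8.13, 7.92 and 7.80 before it. The WT lines read 7.44 and 7.81 after OHT, against 7.23 and 8.03 before it. As with Myh7, and with the same limit, the 4 OHT+ arrays of the mock and mutant lines were above the 8 others. The log2 changes were 1.02 in mock cells, 0.76, 0.74 and 1.08 in mutant lines (mean 0.86 ± 0.19, SD, n = 3) and 0.22 and -0.22 in WT lines, whose mean was 0.00 (interval -0.42 to 0.42, adjusted p = 0.999 by limma). The mock change had an adjusted p of 0.144 and its difference of 1.02 from the WT lines an adjusted p of 0.297 by limma.

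**Figure D1:**
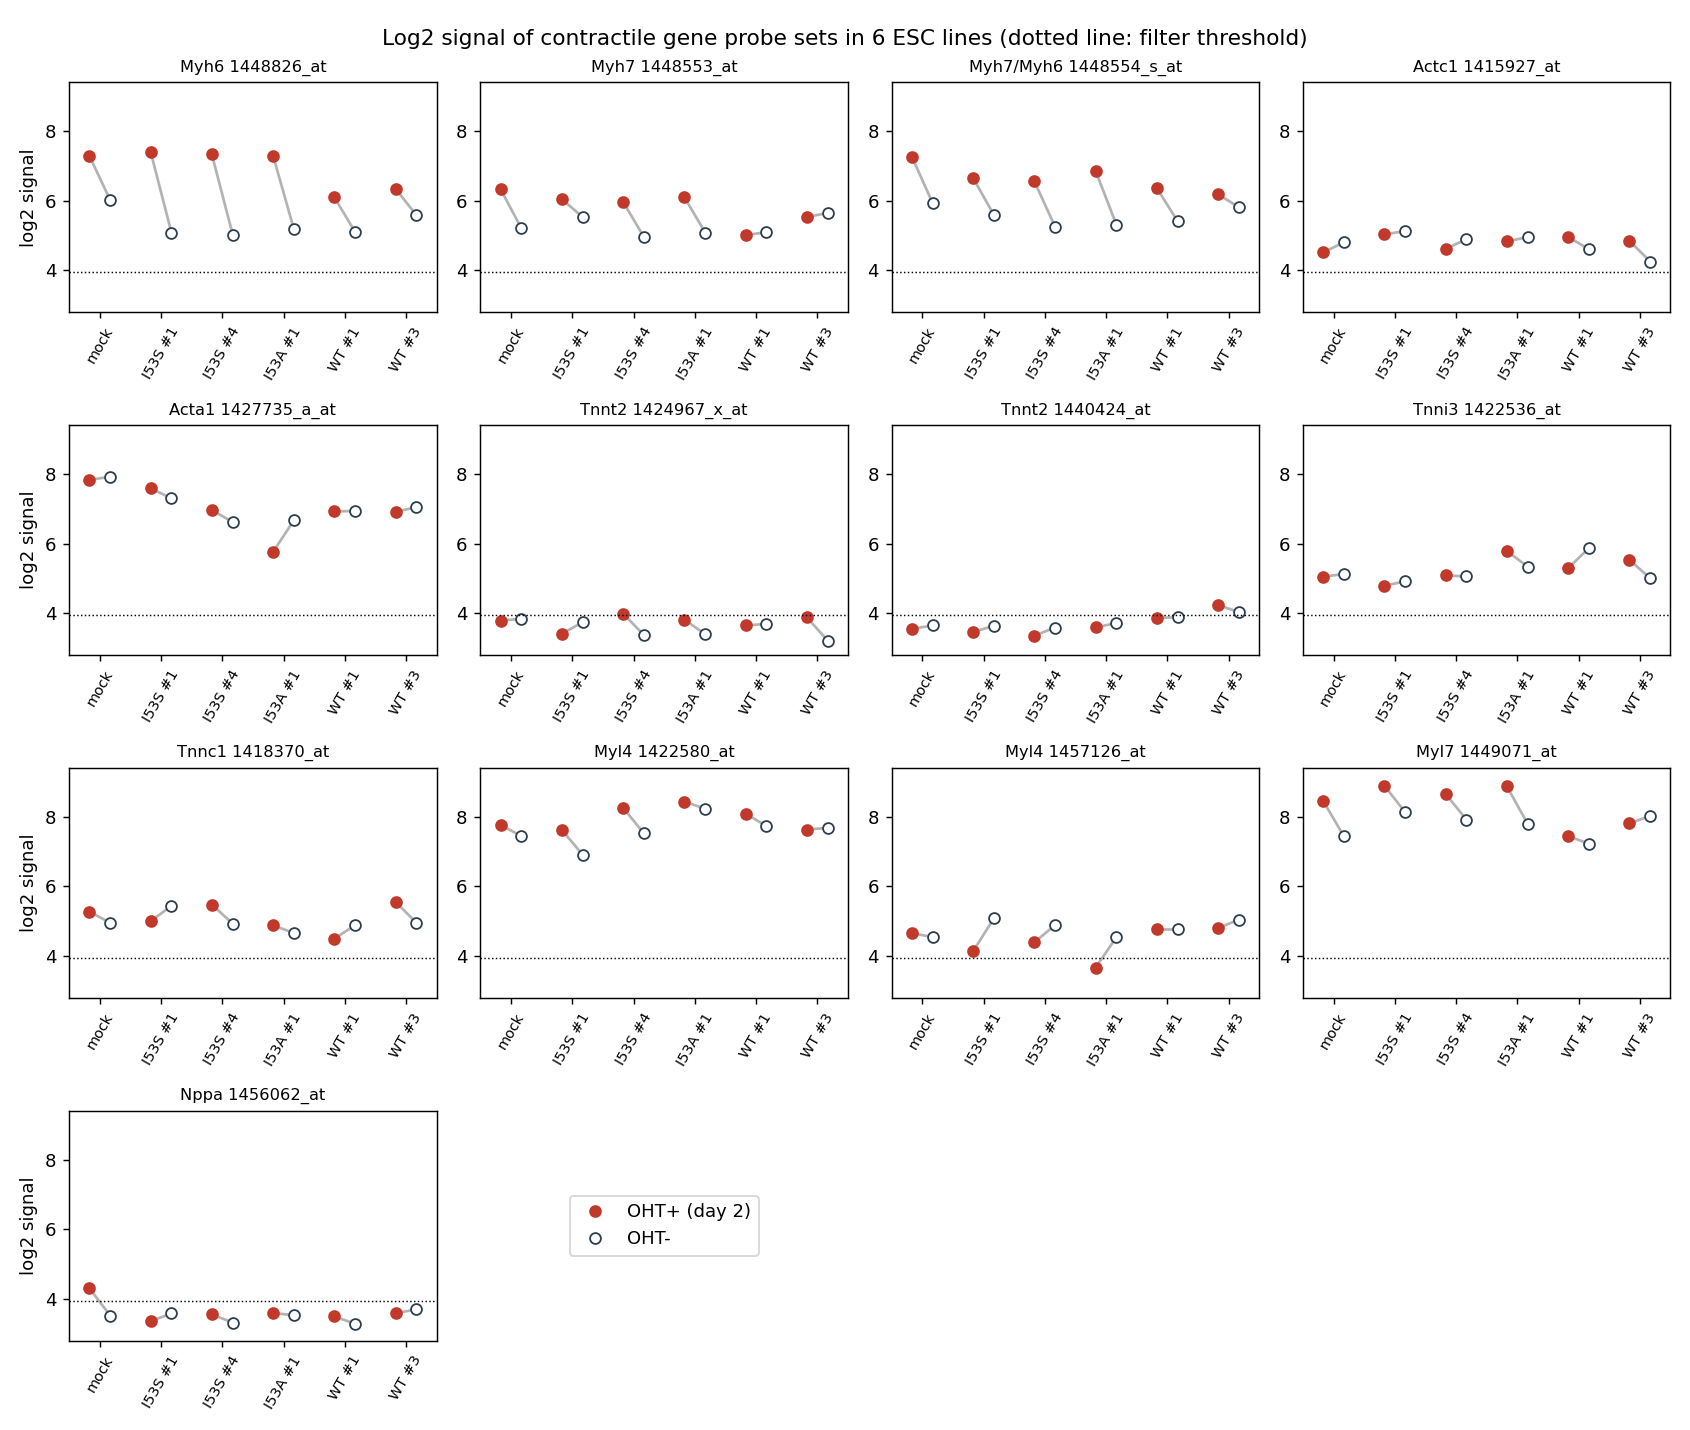
Log2 signal (vertical axis) of each of the 13 probe sets tested in each of the 6 lines (horizontal axis), with OHT+ as a filled point left of OHT- as an open point of the same line; the dotted line is the filter threshold of 3.94. The OHT+ points of the mock and mutant lines lie above the others for Myh6 (7.29 to 7.41), Myh7 (5.97 to 6.33) and Myl7 (8.46 to 8.89). The share of all probe sets with this pattern was not counted. Both Tnnt2 probe sets and Nppa lie around the threshold.

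The other light chain, Myl4, gave opposite readings from its 2 probe sets. 1422580_at read 7.77 after OHT against 7.45 before it in mock cells, 7.62, 8.26 and 8.44 against 6.91, 7.52 and 8.23 in mutant lines, and 8.09 and 7.64 against 7.73 and 7.68 in WT lines. Its log2 changes were 0.32 in mock cells, 0.71, 0.74 and 0.21 in mutant lines and 0.36 and -0.05 in WT lines. 1457126_at read 4.66 after OHT against 4.55 before it in mock cells, 4.14, 4.40 and 3.67 against 5.09, 4.89 and 4.55 in mutant lines, and 4.79 and 4.80 against 4.79 and 5.05 in WT lines. Here the log2 changes were 0.11 in mock cells, -0.95, -0.50 and -0.88 in mutant lines and 0.00 and -0.25 in WT lines. So in mutant lines 1422580_at was higher after OHT in 3 of 3 lines (mean 0.55 ± 0.30, SD, n = 3) and 1457126_at lower in 3 of 3 (mean -0.77 ± 0.24, SD, n = 3). No direction is given for Myl4 as a gene. Neither probe set was called in mock cells (adjusted p = 0.607 and 0.857 by limma) or the WT lines (0.915 and 0.924).

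The actins gave other patterns. Actc1, the cardiac actin, read 4.51 after OHT against 4.80 before it in mock cells. It read 5.03, 4.62 and 4.83 after OHT, against 5.13, 4.89 and 4.96 before it, in mutant lines. In WT lines it read 4.96 and 4.84 after OHT, against 4.61 and 4.25 before it. Its log2 changes were -0.29 in mock cells, -0.10, -0.28 and -0.13 in mutant lines and 0.35 and 0.59 in WT lines, so that the sign was opposite in WT lines. The WT mean of 0.47 (interval 0.14 to 0.80) had an adjusted p of 0.603, and the mock minus WT difference of -0.76 (interval -1.33 to -0.19) an adjusted p of 0.315 by limma. Of the 2 WT readings without OHT, that of WT #3 was the lowest of the 12 arrays.

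Acta1, the skeletal actin, varied between lines within each arm. It read 7.83 after OHT against 7.92 before it in mock cells, 7.59, 6.96 and 5.76 against 7.30, 6.62 and 6.67 in mutant lines, and 6.92 and 6.91 against 6.94 and 7.05 in WT lines. The mock line was brightest in both arms, and I53A #1 after OHT was dimmest. The log2 changes were -0.09 in mock cells, 0.29, 0.34 and -0.91 in mutant lines and -0.01 and -0.14 in WT lines. The adjusted p was 0.944 in mock cells and 0.984 in WT lines by limma.

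The troponins and Nppa had changes of mixed sign over the lines. Tnni3, the inhibitory subunit of heart, read between 4.79 and 5.87 on the 12 arrays, with log2 changes of -0.08 in mock cells, -0.13, 0.03 and 0.46 in mutant lines and -0.58 and 0.53 in WT lines. Tnnc1, the calcium-binding subunit, read between 4.50 and 5.55, with changes of 0.32 in mock cells, -0.45, 0.55 and 0.22 in mutant lines and -0.40 and 0.60 in WT lines. For both genes the 2 WT lines went in opposite directions, and the adjusted p values by limma were 0.771 or higher in mock cells and 0.980 or higher in WT lines. Tnnt2, the tropomyosin-binding subunit, lay at the threshold. 1424967_x_at read 3.21 to 3.99 and passed the filter through the OHT+ array of I53S #4, and 1440424_at read 3.35 to 4.23 and passed through both WT #3 arrays. The changes of 1424967_x_at were -0.06 in mock cells, -0.33, 0.62 and 0.42 in mutant lines and -0.04 and 0.67 in WT lines, and those of 1440424_at were -0.10 in mock cells, -0.18, -0.23 and -0.11 in mutant lines and -0.02 and 0.20 in WT lines. Nppa read 3.28 to 3.70 on 11 arrays and 4.31 on the OHT+ mock array, through which it passed the filter. Its change of 0.79 in mock cells had an adjusted p of 0.205 by limma, and its changes elsewhere were -0.23, 0.23 and 0.07 in mutant lines and 0.21 and -0.11 in WT lines.

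**Figure D2:**
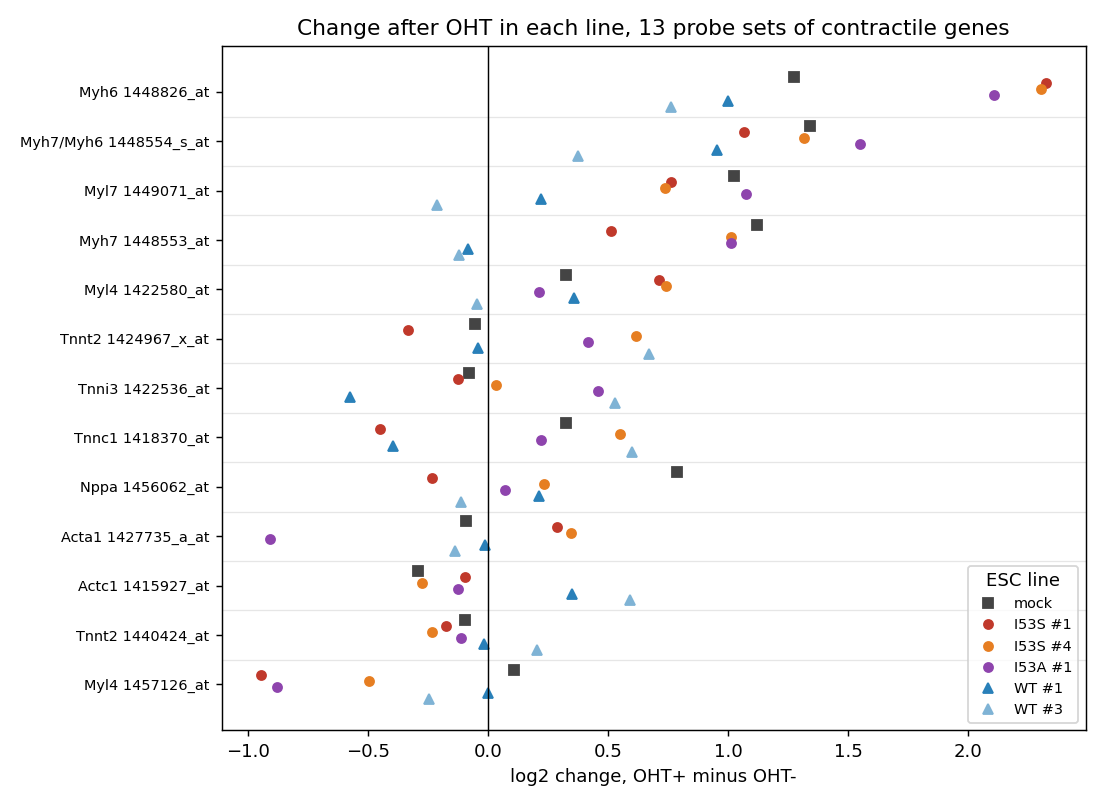
Log2 change, OHT+ minus OHT- (horizontal axis), of each of the 13 probe sets (vertical axis, ordered by the mean of the mutant lines), 1 point per line; squares are the mock line, circles the mutant lines and triangles the WT lines. Myh6 reached 2.11 to 2.33 in mutant lines, and the 2 Myl4 probe sets lie on opposite sides of 0 in mutant lines.

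Counted over the 13 probe sets, limma called 4 higher after OHT in mutant lines (Myh6, Myh7, the shared probe set and Myl7) and 0 lower, beside 2.01% called higher and 0.58% called lower over all 37446 probe sets. The choice of the genes used this comparison, so nothing is read from that count. The 4 calls were the same without the mock line. That outcome was fixed, since the mock line has its own terms in the fit and adds nothing to the spread. Without any 1 of the 3 mutant lines 0 of the 13 were called, and without WT #1 or WT #3 only Myh6 was. Without the block for the line, and with values as deposited, Myh7 and Myl7 were not called. In mock cells and in WT lines limma called 0 of the 13, and 0% of all probe sets in each. At an unadjusted p under 0.05 it was 5 of the 13 in mock cells, against 16.6% of all, and 3 in WT lines, against 7.36% of all. The 5 were Myh6, Myh7, the probe set shared by them, Myl7 and Nppa. Nppa passed the filter only through the OHT+ mock array, so the filter favoured its place in that count. The mock minus WT difference likewise gave 0 calls (0% of all), with 4 of the 13 at an unadjusted p under 0.05, against 12.5% of all. The 4 were Myh7, Actc1, Myl7 and Nppa, the last with the same limit from the filter. Over the alternatives, the count among the 13 was at most 3 in mock cells, 0 in WT lines and 1 for the difference.

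By size alone, a log2 change over 0.5 was reached by 5 of the 13 probe sets in mock cells (14.3% of all probe sets), 5 in I53S #1 (12.1%), 7 in I53S #4 (10.5%), 4 in I53A #1 (12%), 2 in WT #1 (9.61%) and 5 in WT #3 (7.97%). The 5 of WT #3 had only Myh6 in common with the 5 of mock cells. In WT #3 they were Myh6, Actc1, Tnnt2 1424967_x_at, Tnni3 and Tnnc1, and in mock cells they were Myh6, Myh7, the shared probe set, Myl7 and Nppa. Nppa passed the filter only through the OHT+ mock array. Tnnt2 1424967_x_at passed only through the OHT+ array of I53S #4, where it was 1 of the 7. The filter thus favoured their place in the counts of those lines. A log2 change under -0.5 was reached by 0 of the 13 in mock cells (14.5% of all probe sets), 1 in I53S #1 (11.5%, Myl4 1457126_at), 0 in I53S #4 (10.1%), 2 in I53A #1 (12.4%, Acta1 and Myl4 1457126_at), 1 in WT #1 (9.59%, Tnni3) and 0 in WT #3 (8.09%). The median change over the 13 was 0.32 in mock cells, -0.10, 0.55 and 0.22 in mutant lines and 0.00 and 0.20 in WT lines, while the median over all probe sets was within 0.03 of 0 in every line.

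Before OHT, when every line still had its endogenous Ring1B, the contractile probe sets were compared between mutant and WT lines. The mutant OHT- arrays are part of the change that led to the choice, which favours low Myh6 readings on them. The tests are therefore not independent of the choice, and nothing is read from them. Limma called 0 of the 13, and 0% of all probe sets, with 1 of the 13 at an unadjusted p under 0.05, against 5.71% of all. That 1 was Actc1, which averaged 4.99 ± 0.12 in mutant lines (SD, n = 3) and 4.43 ± 0.25 in WT lines (SD, n = 2), a difference of 0.56 (interval 0.09 to 1.03, adjusted p = 0.841 by limma). Myh6 averaged 5.10 ± 0.08 in mutant lines and 5.34 ± 0.34 in WT lines, a difference of -0.24 that is given without a test. Myl7 averaged 7.95 ± 0.17 in mutant lines and 7.63 ± 0.57 in WT lines, and its difference of 0.32 had an interval of -0.31 to 0.95 (adjusted p = 0.938 by limma).

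The rest of the contractile apparatus was measured by a wider list of 46 sarcomere genes, of which 36 were tested with 59 probe sets. In mutant lines 1 of the 59 was called higher and 2 lower, against 2.01% higher and 0.58% lower of all probe sets. In mock and WT lines 0 were called. At an unadjusted p under 0.05 it was 19 of the 59 in mock cells, against 16.6% of all, and 4 in WT lines, against 7.36% of all. The list's median change was 0.08 in mock cells, 0.04 over the mutant lines and -0.06 over the WT lines. The probe set that rose belongs to Myh3, the embryonic skeletal myosin heavy chain, with changes of 0.88, 1.70 and 1.40 in mutant lines (mean 1.33, SE 0.18, adjusted p = 0.0327 by limma), 1.39 in mock cells and 0.11 and -0.23 in WT lines. Actn3, the alpha-actinin of fast muscle fibres, fell by 1.03 on average in mutant lines (SE 0.11, adjusted p = 0.0226 by limma) and changed by -1.89 in mock cells (adjusted p = 0.0763) and by -0.10 and -0.16 in WT lines. Ttn, which encodes the molecular spring titin, was called lower by 1 of its 6 probe sets (1427445_a_at, mean -1.25, adjusted p = 0.0367), and its other 5 ran from -0.74 to 0.34 with an adjusted p of 0.0515 or higher. With its probe sets averaged, Ttn was not called in mutant lines (-0.37, adjusted p = 0.102 by limma). Of 20 genes for calcium handling and hormones, 16 were tested with 29 probe sets, and limma called 0 in any class, with 4 at an unadjusted p under 0.05 in mock cells (16.6% of all probe sets), 4 in mutant lines (19.8%) and 1 in WT lines (7.36%). Atp2a2, the calcium pump of the sarcoplasmic reticulum, had changes between -0.68 and 0.80 over its 6 probe sets in mutant lines.

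Some regulators of the early heart were called higher after OHT in mutant lines, while most of the list was not called. All 20 cardiac transcription factors of the list were tested, with 48 probe sets, and 5 were called higher in mutant lines and 0 lower, against 2.01% and 0.58% of all probe sets. They were 1 each of Tbx20, Irx4, Isl1, Hand2 and Gata6. Over the 48 the median change was 0.42 in mock cells, 0.15 over the mutant lines and 0.006 over the WT lines. Tbx20, a T-box factor of the early heart, had changes of 3.37, 1.80 and 1.87 in mutant lines (mean 2.35, SE 0.33, adjusted p = 0.0354 by limma for 1453351_at), 2.97 in mock cells and 0.78 and 0.20 in WT lines, though 2 other Tbx20 probe sets were not called (means -0.01 and 0.35). Irx4, a factor of the ventricle, rose by a mean of 1.58 (SE 0.15, adjusted p = 0.0195), beside 1.46 in mock cells and 0.18 and 0.37 in WT lines. Isl1, a factor of the second heart field and of motor neurons, rose by a mean of 1.51 for 1450723_at (SE 0.14, adjusted p = 0.0188), beside 2.44 in mock cells and -0.23 and -0.36 in WT lines. In mock and WT lines 0 of the 48 were called, with 16 in mock cells (16.6% of all probe sets) and 5 in WT lines (7.36%) at an unadjusted p under 0.05. Hand2, Gata6, Nkx2-5, Hand1 and Gata4 were named after their values were seen. Hand2 (1436041_at), a factor of the right ventricle, had changes of 2.03 in mock cells, 1.33, 1.88 and 0.80 in mutant lines (adjusted p = 0.0421 by limma) and 0.05 and 0.19 in WT lines. With its probe sets averaged, Hand2 was not called in mutant lines (mean 0.61, adjusted p = 0.0856 by limma). Gata6 (1425464_at), a factor of heart and endoderm, had changes of 2.94 in mock cells, 0.95, 0.73 and 1.13 in mutant lines (adjusted p = 0.0286 by limma) and 0.26 in each WT line. With its probe sets averaged, Gata6 had a smaller mean in mutant lines and stayed called (0.52, adjusted p = 0.0298 by limma). Nkx2-5, a defining factor of heart muscle, had changes of 0.44 in mock cells, -0.12, 0.13 and 0.68 in mutant lines and -0.06 and 0.02 in WT lines. The brightest probe set of Hand1 changed by 0.36 in mock cells, -0.36, -0.34 and -0.17 in mutant lines and -0.13 and 0.88 in WT lines. That of Gata4 changed by 0.77, by -0.17, 0.09 and -0.02, and by -0.77 and 0.60 in the same order.

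Of 6 skeletal myogenic factors, 4 were tested with 7 probe sets, and 1 was called, a Pax3 probe set (1441743_at) that rose by a mean of 1.50 in mutant lines (SE 0.16, adjusted p = 0.0226 by limma), with 2 other Pax3 probe sets not called. Myf5 and Myf6, which define muscle precursors and fibres, stayed below the threshold on all 12 arrays. Of 11 early mesoderm genes, 9 were tested with 13 probe sets, of which 3 were called higher and 0 lower in mutant lines. Over all probe sets these shares were 2.01% and 0.58%. They were Gsc, a homeobox gene of the organizer (mean 1.37, SE 0.16, adjusted p = 0.0247 by limma), and both probe sets of Eomes, a T-box factor of the primitive streak (means 0.94 and 0.69, adjusted p = 0.0343 and 0.0433). The median change of the mesoderm list was 0.69 in mock cells, 0.70, 0.44 and 0.81 in mutant lines and -0.17 and -0.01 in WT lines. With each probe set first averaged over the lines of a class, the median was 0.69 over the mutant lines and 0.10 over the WT lines. Neither list had a call in mock cells or WT lines. At an unadjusted p under 0.05 the skeletal list had 3 of 7 probe sets in mock cells and 0 in WT lines, and the mesoderm list 6 of 13 in mock cells and 0 in WT lines, against 16.6% of all probe sets in mock cells and 7.36% in WT lines. The calls named above in mutant lines for the sarcomere, transcription factor, skeletal and mesoderm lists were lost without any 1 of the 3 mutant lines, when 0 of all probe sets were called. Without a WT line those of Irx4, Isl1 and Gsc remained, and without the block for the line those of Myh3, Irx4, Isl1, Gata6, Pax3 and Eomes 1426001_at did. With values as deposited, Hand2 and Eomes 1435172_at were not called (adjusted p = 0.0528 and 0.0595 by limma).

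Fibroblast and smooth muscle markers were measured on the same arrays. Over the 30 fibroblast probe sets tested, the mean log2 signal was 7.52 in mock cells, 6.44 to 7.48 in mutant lines and 6.05 to 6.37 in WT lines after OHT, against 6.92 in mock cells, 6.25 to 6.83 in mutant lines and 5.97 to 6.34 in WT lines before it. The median change of that list was 0.65 in mock cells, 0.65, 0.17 and 0.24 in mutant lines and 0.09 and 0.02 in WT lines. In mutant lines 2 of the 30 were called higher (Col5a1 1416740_at, mean 0.89, adjusted p = 0.0275, and Thy1, mean 0.67, adjusted p = 0.0435 by limma), against 2.01% of all probe sets, and 2 other Col5a1 probe sets were not. With values as deposited Thy1 was not called (adjusted p = 0.058 by limma). With probe sets averaged per gene Col5a1 was not called (0.22, adjusted p = 0.292 by limma). Both calls were lost without the block for the line and with any 1 mutant or WT line left out. In mock cells and WT lines 0 were called. At an unadjusted p under 0.05 it was 12 of the 30 in mock cells (16.6% of all), 12 in mutant lines (19.8%) and 2 in WT lines (7.36%). Over the 13 smooth muscle probe sets the mean log2 signal was 6.82 in mock cells, 5.77 to 6.76 in mutant lines and 5.85 to 5.94 in WT lines after OHT, against 6.34 in mock cells, 5.57 to 6.29 in mutant lines and 5.65 to 5.73 in WT lines before it. The median change was 0.51 in mock cells, 0.47, 0.31 and 0.17 in mutant lines and 0.17 and 0.24 in WT lines. In mutant lines 1 of the 13 was called higher, against 2.01% of all probe sets, and 0 were called in mock cells and WT lines. It was Myl9, the smooth muscle regulatory light chain (mean 0.69, SE 0.12, adjusted p = 0.0492 by limma). Its call was lost with any 1 mutant or WT line left out. At an unadjusted p under 0.05 it was 4 of the 13 in mock cells, 4 in mutant lines and 1 in WT lines, beside the same 16.6%, 19.8% and 7.36% of all. The part of feeder or other muscle cells in the myosin and actin values was not tested. ESC markers had median changes of -0.25 in mock cells, -0.27, -0.32 and -0.20 in mutant lines and 0.00 and 0.07 in WT lines, with 0 of 25 probe sets called in any class and, at an unadjusted p under 0.05, 5 in mock cells (16.6% of all probe sets), 15 in mutant lines (19.8%) and 0 in WT lines (7.36%). Dppa5a changed by 0.01 on average in mutant lines. Of 16 probe sets of housekeeping genes 0 were called in any class, with 2 in mock cells, 0 in mutant lines and 0 in WT lines at an unadjusted p under 0.05, beside those same shares of all, and Rplp0 changed by 0.03 on average in mutant lines.

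**Figure D3:**
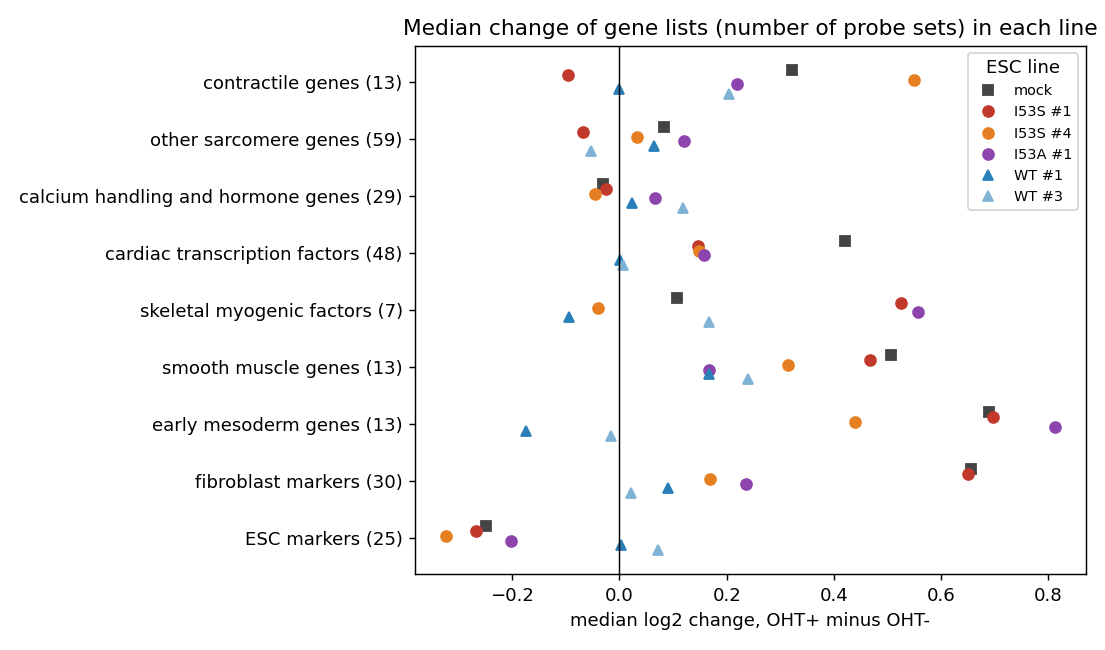
Median log2 change, OHT+ minus OHT- (horizontal axis), of the contractile genes and of 8 other gene lists (vertical axis, number of probe sets in parentheses), 1 point per line with the same symbols for the lines as above. The early mesoderm list lies at 0.44 to 0.81 in the mock and mutant lines and at -0.17 and -0.01 in WT lines, whereas the other sarcomere genes lie within 0.13 of 0 in all 6 lines.

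The 5 genes whose log2 signal was most like that of Myh6 over the 12 arrays were Neurl1b, Rbm38, En2, Slc30a2 and Paqr9, with Pearson r of 0.971, 0.969, 0.960, 0.959 and 0.957. En2 is a homeobox factor of the midbrain and hindbrain, Rbm38 an RNA-binding protein and Slc30a2 a zinc transporter. The arrays come in pairs of a line and share the OHT contrast, so these values describe a pattern only. Paqr9 was closest to Myh6 in the size of its rise, with changes of 2.11, 1.96 and 2.21 in mutant lines, 1.78 in mock cells and 0.53 and 0.10 in WT lines. Neurl1b changed by 1.24, 1.63 and 1.18 in mutant lines, 0.54 in mock cells and 0.66 and 0.69 in WT lines, the only 1 of the 5 that changed less in the mock than in both WT lines. Among the contractile genes the r with Myh6 was 0.943 for the shared probe set, 0.831 for Myh7 and 0.737 for Myl7, and 0.09 for Acta1, -0.12 for Actc1 and -0.71 for Myl4 1457126_at.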

How the data were processed

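Values are the log2 signals that the authors deposited for each array. Per the labels they came from RMA in Affymetrix Expression Console, whereas the supplementary methods name MAS5 and quantile normalization; versions are not given in the sources. Deposited medians differed between arrays (4.66 to 5.67), so the values were quantile normalized here. Gene symbols came from the platform annotation: 34945 of 45037 probe sets have 1 symbol, 932 several and 9160 none, and 64 controls were left out. Probe sets whose highest signal exceeded 3.94, the 30th percentile, were kept (37446) and fitted in R 4.3.3 with limma 3.58.1 (lmFit and eBayes, two-sided), with a block for each line and 1 OHT effect per class (mock, mutant, WT). P-values were adjusted over all probe sets, called under 0.05, and measure only the spread between these lines. The line pairs the arrays, and as a check the deviations of its 2 arrays from their class means correlated at 0.25 (WT lines) and 0.32 to 0.38 (mutant lines). OHT- arrays were also fitted alone by class. The fit was tested on simulated data, and precision is limited by the number of arrays.

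The members and lists were chosen with earlier results of these data known. Named are all members, up to 3 called genes per list by the size of change (with none called, the brightest), and the 5 genes most correlated with Myh6. The alternatives were values as deposited, arrays centred on their medians, no filter, probe sets averaged per gene, no block, trended and robust priors, and each line left out. RefSeq promoters (GRCm38.p6) were scanned for motifs on both strands.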

Additional observations from a re-analysis of the deposited data

Results flagged for a closer look

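Actc1 and Myh7 changed in opposite directions between classes of lines, with every line of each class on the same side. The mock class is a single line. The share of all probe sets that split this way was not counted, so nothing is read from the split. For Actc1 (1415927_at) the mean log2 change in the mutant lines minus that in the WT lines was -0.64, and the change in the mock line minus that in the WT lines was -0.76. For Myh7 (1448553_at) the mutant minus WT difference was 0.95 and the mock minus WT difference 1.23. The mutant minus WT differences were not tested, because the genes were selected on the mutant lines. By limma the mock minus WT differences had adjusted p values of 0.315 for Actc1 and 0.261 for Myh7. No class had the 4 lines needed to look for a single outlying line.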

How the results depend on the processing

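In the mock line limma called 0 probe sets, and 1 with arrays centred on their medians, 275 genes with probe sets averaged per gene, 36 without the replicate block and 2491 with trended and robust priors. Of the contractile probe sets, 1 (Myh6, adjusted p = 0.0406) was called there after averaging and 3 with trended and robust priors (Myh6, adjusted p = 0.00954, the shared probe set, 0.0115, and Myl7, 0.00252). With values as deposited, and with arrays centred, Myl4 1457126_at was called lower in the mutant lines, and Myl9 lost its call under both, with no filter and without the block. With trended and robust priors 6 contractile probe sets were called there, the 4 and both of Myl4, 1422580_at higher (0.55) and 1457126_at lower (-0.77). The calls in the mutant lines numbered 968, against 606 without the block and 4079 with trended and robust priors, and 0 to 203 with 1 line left out (0 without a mutant line, 203 without either WT line). Among the 13 contractile probe sets these were 4, against 2 without the block and 0 to 1 with a line left out. Without the mock line they could not change, as it adds nothing to the spread of that fit. For mock minus WT, trended and robust priors called 892 probe sets, 1 of them contractile (Myl7), and leaving out the block changed no other call of the contractile genes. Averaged per gene, 1 of 10 contractile genes exceeded 0.5 in WT #1, 3 in I53S #1 and 4 in I53S #4.

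In the mock line, 4 values that were not called changed sign. As deposited, Tnnc1 was -0.046, Myl4 1422580_at -0.017 and Myl4 1457126_at -0.30, and with arrays centred on their medians Tnnt2 1440424_at was 0.062. Deposited values shifted the median change over all probe sets by -0.37 in the mock line. The cause of the other differences was not tested. Of 431 recomputed values, 39 moved beyond the spread of replicates, past 1.5 times a count or across the threshold or 0, those above included. Many of the 431 could not move. A mean log2 change in mutant lines is the same number with no filter, no block or other priors. It is also the same without the mock line or a WT line. The levels before OHT have 1 array per line, so no fit with the block exists for them, and without the mock line there is no mock value. Signals near the threshold, those of Tnnt2, Nppa and Pax3 1441743_at, limit what can be said of them.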
